A study of Mus musculus with 12 samples.

Results

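The anaphase-promoting complex or cyclosome (APC/C) was followed through 10 genes, out of 55573 genes counted in these data. They were chosen by name, as 7 core subunits (Anapc1, Anapc2, Anapc4, Anapc5, Cdc16, Cdc23 and Cdc27), the activators Cdc20 and Fzr1, and the inhibitor Fbxo5, and were matched by Ensembl identifier. Polyadenylated RNA was sequenced in 12 libraries of germinal vesicle (GV) oocytes, which are fully grown mouse oocytes arrested with an intact nuclear envelope. Whole oocytes gave 6 libraries, of which 2 each were amplified for 10, 14 and 18 cycles. Oocyte fractions gave the other 6 libraries, with 2 each from 1/2, 1/4 and 1/8 of an oocyte, and the methods give 18 cycles for them too. The comparisons ask how the number of amplification cycles and the amount of oocyte RNA bear on the measured abundance of each transcript.

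According to the methods, the oocytes came from a healthy B6D2F1 female aged 12 weeks. They were released from the ovary and kept in M2 medium with milrinone, an inhibitor of phosphodiesterase 3 that holds oocytes at the GV stage. The methods give 8 oocytes in all, 6 of them whole and 2 lysed and diluted to make the fractions. With 2 oocytes for 6 fraction libraries, some fractions must share an oocyte, but the labels do not state which lysate gave which fraction. The main fits treat the fraction libraries as separate. Each lysate received an equal amount of a synthetic RNA mix, the spike-in of the External RNA Controls Consortium (ERCC), at the start of RNA purification and so after dilution. Replicates of whole oocytes are separate oocytes, and no source states more than 1 donor animal. The p-values below therefore measure the spread between these libraries only, which may be technical in part.

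The APC/C is a ubiquitin ligase that marks cyclin B and securin for destruction, and so lets chromosomes separate and cells leave division. A scaffold holds a catalytic core on one side and an arm of tetratricopeptide repeat (TPR) subunits on the other, and an activator protein bound to the arm brings in the substrate. In the GV oocyte the activator Fzr1, also called Cdh1, is known to keep cyclin B low and so helps to hold prophase arrest, while Cdc20 drives the later passage through anaphase. Fbxo5, also called Emi1, binds the complex and blocks its activity.

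All 10 genes are protein coding in GENCODE. In GRCm38, Anapc1 (ENSMUSG00000014355) lies at chr2:128610104-128687391 on the minus strand, Anapc4 (ENSMUSG00000029176) at chr5:52834012-52867797 on the plus strand, and Anapc5 (ENSMUSG00000029472) at chr5:122787459-122821339 on the minus strand. Anapc2 (ENSMUSG00000026965) lies at chr2:25272478-25285915 on the plus strand. Cdc27 (ENSMUSG00000020687) lies at chr11:104502745-104550620 on the minus strand and Cdc16 (ENSMUSG00000038416) at chr8:13757676-13781938 on the plus strand, and Cdc23 is ENSMUSG00000024370. The activators lie on minus strands, Cdc20 (ENSMUSG00000006398) at chr4:118432901-118437352 and Fzr1 (ENSMUSG00000020235) at chr10:81366222-81378516, as does Fbxo5 (ENSMUSG00000019773) at chr10:5799160-5805600.

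Each of the 10 genes had counts in each of the 12 libraries, and each passed the filter on low counts. Gene counts per library were 11597144 and 9189672 for 10 cycles, 12349577 and 13806199 for 14 cycles, and 3017069 and 1706478 for 18 cycles in whole oocytes. For the fractions they were 4024670 and 3598549 (1/2), 4027907 and 5049518 (1/4), and 11404262 and 1702062 (1/8). Abundance is given as CPM, the counts of a gene scaled to a library total of 1000000 gene counts. The smallest count of any of the 10 was 47, for Anapc1 in replicate 2 at 18 cycles, where 27.5 CPM had a Wilson 95% interval from 20.7 to 36.6. Such intervals cover counting error only, because amplified reads are not independent molecules. The libraries at 18 cycles were both the shallowest of the whole oocytes and made from other oocytes, so cycle number, depth, oocyte and preparation cannot be told apart. The fractions were dilutions of lysates, so their smaller amount of RNA was set by the design. They were made from other oocytes than the whole ones, so against whole oocytes the amount of lysate, oocyte, depth and preparation cannot be told apart.

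To compare genes with each other, counts were divided by the merged exon length and scaled to a total of 1000000 per library (TPM). In the 4 whole-oocyte libraries at 10 and 14 cycles, Fbxo5 had 302 ± 21.1 TPM (SD, n = 4), Fzr1 189 ± 29.9, Cdc20 184 ± 1.77 and Cdc27 155 ± 13.3 TPM. Anapc2 at 105 ± 1.89, Anapc4 at 92.5 ± 9.80 and Anapc5 at 92.4 ± 13.2 TPM overlapped. Cdc16 had 42.2 ± 2.50, Anapc1 22.4 ± 1.10 and Cdc23 17.1 ± 1.52 TPM. Part of this order depends on the length used, which was read in 2 ways, as merged exon length and as the length of the longest transcript. With either length Fbxo5 lay above Cdc20 and above every one of the 7 subunits in these 4 libraries. It lay above Fzr1 in all 4 with merged exon length only. With the longest transcript, replicate 2 at 14 cycles had 263 TPM for Fzr1 and 232 for Fbxo5, while Fbxo5 was higher in the other libraries. With either length Cdc16, Anapc1 and Cdc23 lay below the other 7 genes, and Cdc16 lay above Anapc1 and Cdc23. The activators cannot be placed as firmly. Cdc20 exceeded every subunit in 4 of the 4 libraries with merged exon length and in 3 with the longest transcript, and Fzr1 did so in 3 and in 4. The libraries of Fzr1 and Cdc20 overlapped with merged exon length only, and those of Anapc1 and Cdc23 with the longest transcript only. With merged exon length the 10 genes together summed to between 1177 and 1247 TPM there.

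In the 2 whole oocytes at 18 cycles the order per length differed. With merged exon length, Fbxo5 had 582 and 353, Fzr1 380 and 259, and Cdc20 299 and 293 TPM. Cdc27 had 55.3 and 59.1 TPM, below Anapc2, Anapc4 and Anapc5, which lay between 123 and 191 TPM. Anapc1 came last at 8.46 and 4.95 TPM, below Cdc23 at 11.4 and 10.2 TPM. In the 6 fractions, Fbxo5 had 328 to 473 TPM, and Cdc20 (167 to 294) overlapped with Fzr1 (102 to 306). Cdc23 (10.2 to 18.1 TPM) and Anapc1 (7.52 to 14.3 TPM) were the lowest of the 10 genes in each fraction and overlapped.

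**Figure D1:**
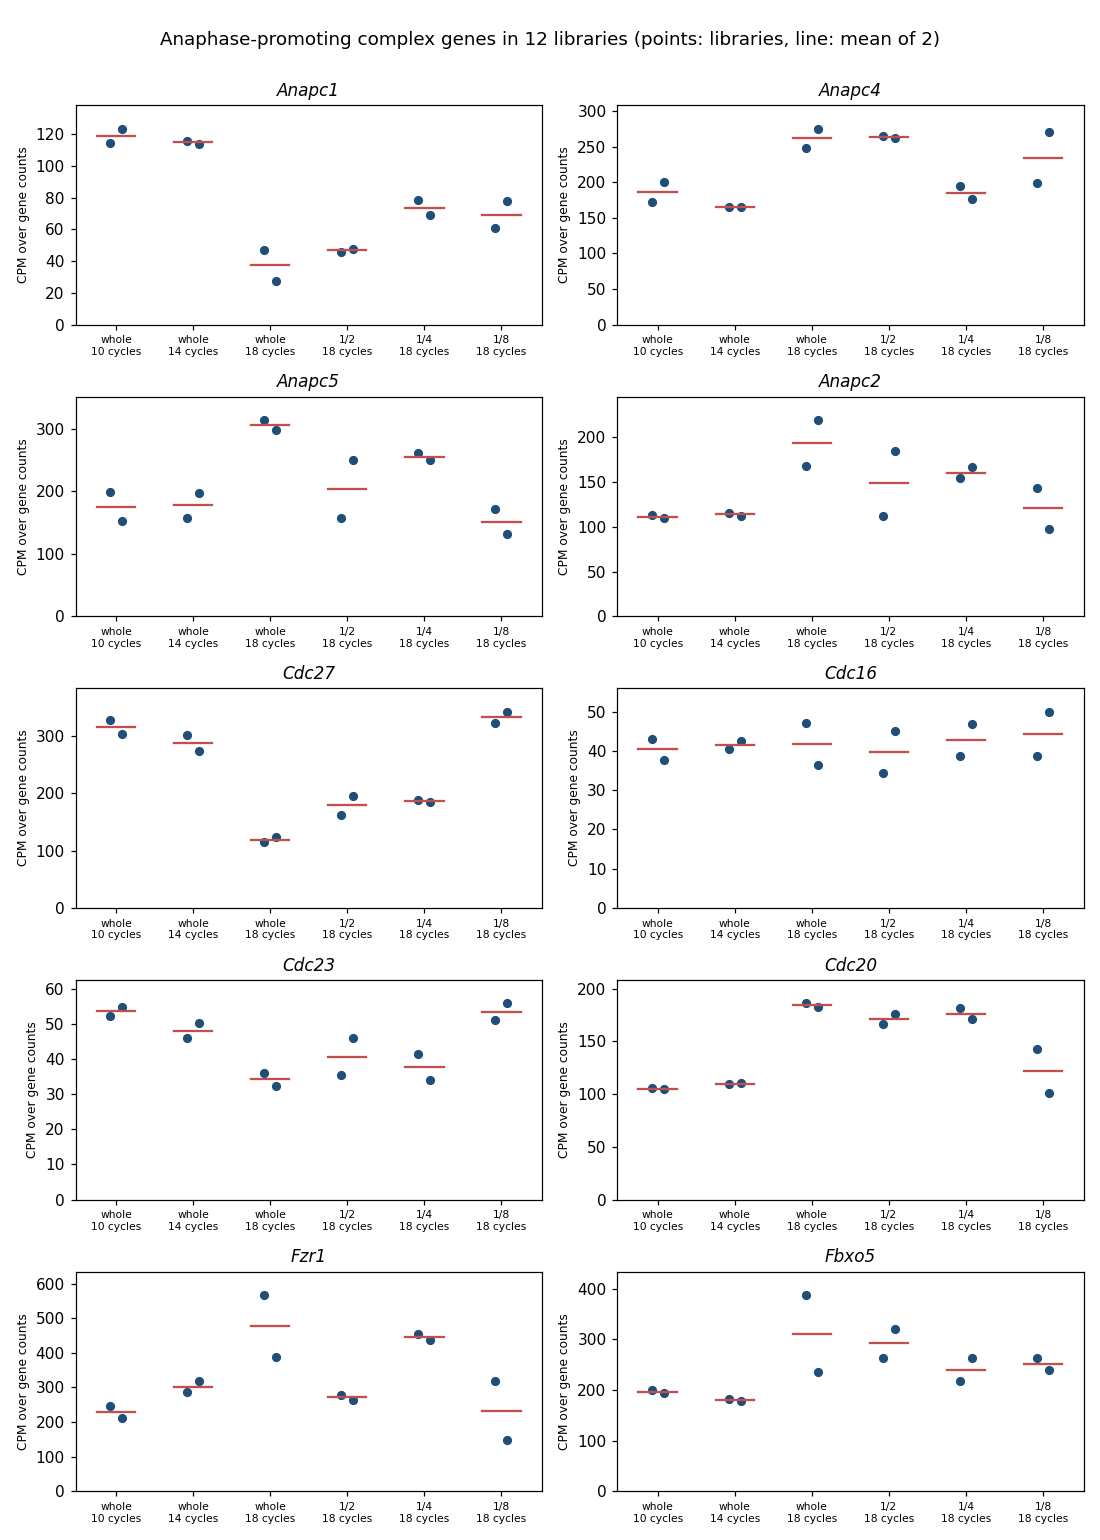
Abundance of the 10 genes in CPM over gene counts (vertical axis, from 0) in each of the 6 groups of libraries (horizontal axis). Points are the 12 libraries and red lines the means of 2; Anapc1 and Cdc27 have their lowest group means in whole oocytes at 18 cycles, and Cdc16 stays between 34.3 and 49.9 CPM in all 12.

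Whole oocytes amplified for 14 and 10 cycles were compared in a fit of the 6 whole-oocyte libraries by edgeR's quasi-likelihood test, with size factors from the median ratio over all genes. Of the 10 genes, 0 passed an adjusted p of 0.01, the threshold used throughout, and 0 had an unadjusted p under 0.05. The background was 0% of the 17532 genes tested. By edgeR 514 genes in all had an unadjusted p under 0.05, and DESeq2 called 1 gene lower and 1 higher but none of these 10. The log2 fold changes lay between -0.20 (Anapc4) and 0.37 (Fzr1). Fzr1 had 246 and 212 CPM at 10 cycles and 287 and 318 CPM at 14 cycles, so the groups did not overlap, but the difference of 0.37 (standard error 0.20) was not called.

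With the median ratio, 7 of the 10 genes differed between 18 and 10 cycles, 2 of them lower and 5 higher at 18. The background in the same test was 10.9% lower and 12.2% higher, or 23.1% in either direction, over 17532 genes. The 10 genes are well measured, and among genes with at least 10 counts in every library the background was 45.6%, with 1651 lower and 2485 higher of 9073, and 8 of the 10 were called in that fit. Against 14 cycles 8 of the 10 differed, 2 lower and 6 higher, with a background of 10.8% lower, 12.5% higher and 23.3% in either direction, or 44.8% (1567 lower and 2498 higher) among genes with at least 10 counts in every library. The comparisons at 18 cycles share their libraries, so they are not separate evidence. The median log2 fold change of the 10 genes was 0.83 against 10 cycles and 0.95 against 14 cycles, while that of all genes was -0.30 in both and that of genes with at least 10 counts in every library was 0.23 and 0.25. Each direction is relative to that scaling, since with ERCC size factors the median of all genes moved to 1.96 against 10 cycles where Anapc1, Cdc23 and Cdc27, the 3 genes below 0 with the median ratio, turned positive. With ERCC size factors 0 of the 10 genes were lower and 8 higher, beside 0 lower and 8348 higher of 17532 genes, and against 14 cycles 0 were lower and 9 higher, beside 2 lower and 8398 higher. These counts are by edgeR's quasi-likelihood test, where an unadjusted p under 0.05 was reached by 10489 and 10522 genes, and DESeq2 was not run with ERCC size factors for cycles. With TMM the median of all genes was -0.38 against 10 cycles.

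Leaving out 1 library at 10 cycles ended most of these calls, and the lone library left in that group is then assumed to vary like the other groups. Without replicate 1 at 10 cycles 1 of the 10 genes was called (Anapc1), and without replicate 2 it was 0, with adjusted p-values of the 7 genes between 0.0119 and 0.0562 by edgeR's quasi-likelihood test. Calls over all genes fell too, to 964 lower and 975 higher of 16841 without replicate 1, and to 727 lower and 924 higher of 17203 without replicate 2. Against 14 cycles the number fell to 0 without replicate 1 or without replicate 2 at 14 cycles, where 949 genes were lower and 987 higher of 16896, and 892 and 948 of 16701. It fell to 5 without either library at 10 cycles, where 1429 and 1451 genes were lower and 1782 and 1776 higher. The log2 fold changes moved little. From the fit with all libraries to those without replicate 1 and without replicate 2 at 10 cycles, Anapc1 went from -1.41 to -1.51 and -1.32, Cdc27 from -1.15 to -1.14 and -1.17, and Anapc2 from 1.06 to 1.04 and 1.07. Anapc5 went from 1.06 to 1.21 and 0.91, Cdc20 from 1.07 to 1.03 and 1.09, Fzr1 from 1.31 to 1.37 and 1.23, and Fbxo5 from 0.91 to 0.87 and 0.92.

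In the scaffold, Anapc1 was lower at 18 cycles with the median ratio but not with ERCC size factors, and Anapc5 was higher. Anapc1, the largest scaffold protein, had 115 and 124 CPM at 10 cycles, 116 and 114 after 14 cycles, and 47.1 and 27.5 with 18 cycles. Both libraries at 18 cycles were thus below every library at 10 and 14 cycles. From 10 to 18 cycles the log2 fold change was -1.41 (standard error 0.23, adjusted p = 0.00112, edgeR's quasi-likelihood test), and with ERCC size factors it was 0.89 and not called (adjusted p = 0.106). Anapc5, which joins the scaffold to the TPR arm, had 199 and 152 CPM at 10 cycles, 158 and 197 after 14 cycles, and 314 and 297 with 18 cycles. Its libraries at 10 and 14 cycles overlapped, and both at 18 cycles were higher. It rose by 1.06 on the log2 scale (standard error 0.21, adjusted p = 0.00265, edgeR's quasi-likelihood test). Anapc4, another scaffold subunit, had 172 and 200, 166 and 166, and 248 and 275 CPM at 10, 14 and 18 cycles. Its libraries at 18 cycles were again the highest of the whole oocytes, but its log2 fold change of 0.75 against 10 cycles did not pass (adjusted p = 0.0156 by edgeR's quasi-likelihood test). It passed with DESeq2, without a filter, with at least 10 counts in every library and with ERCC size factors (2.95), but not with TMM or the replicate block. Against 14 cycles the value was 0.96 and passed (adjusted p = 0.00467, edgeR's quasi-likelihood test).

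Anapc2 is the cullin-like subunit of the catalytic core. It had 113 and 110 CPM at 10 cycles, 115 and 112 after 14 cycles, and 168 and 219 with 18 cycles. The 4 libraries at fewer cycles lay close together, and both at 18 cycles were higher. The log2 fold change against 10 cycles was 1.06 (standard error 0.22, adjusted p = 0.00373, edgeR's quasi-likelihood test).

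In the TPR arm, Cdc27 was lower with the median ratio but not with ERCC size factors, and neither Cdc16 nor Cdc23 passed with the median ratio. Cdc27, which docks the tails of the activators, had 327 and 304 CPM at 10 cycles, 302 and 274 after 14 cycles, and 115 and 123 with 18 cycles. The groups at 10 and 18 cycles were far apart relative to the gap between replicates. Its log2 fold change was -1.15 (standard error 0.20, adjusted p = 0.00140, edgeR's quasi-likelihood test), and with ERCC size factors it was 1.08 and not called. Against 14 cycles it was -0.98 and called lower with the median ratio, but 1.26 and called higher with ERCC size factors (adjusted p = 0.00325 and 0.00883, edgeR's quasi-likelihood test). Cdc16 had 43.1 and 37.8 CPM at 10 cycles and 47.1 and 36.3 at 18 cycles, so these groups overlapped, but with ERCC size factors its log2 fold change was 2.59 and called higher. Cdc23, which also binds activators, had 52.3 and 54.7 CPM at 10 cycles and 36.1 and 32.2 at 18 cycles. The Cdc23 libraries did not overlap, but the log2 fold change of -0.39 was not called (adjusted p = 0.194 by edgeR's quasi-likelihood test), and with ERCC size factors it was 1.86 and called higher. Of the exon bases of Cdc23, 13.4% are shared with Kif20a on the opposite strand, so some of its reads may have been left unassigned or counted for the other gene.

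Both activators rose. Cdc20 had 106 and 105 CPM at 10 cycles, 109 and 110 after 14 cycles, and 186 and 182 with 18 cycles. Replicates lay close together in all 3 groups, and the libraries at 18 cycles stood clear of the rest. Cdc20 rose by 1.07 on the log2 scale (standard error 0.19, adjusted p = 0.00142, edgeR's quasi-likelihood test). Fzr1 had 567 and 387 CPM at 18 cycles, beside 246 and 212 at 10 cycles. Its replicates at 18 cycles differed widely, yet both exceeded the whole oocytes at fewer cycles. Fzr1 rose by 1.31 on the log2 scale (standard error 0.21, adjusted p = 0.000830, edgeR's quasi-likelihood test). Cdc20 shares 2.84% of its exon bases with Elovl1 and Fzr1 0.0891% with Mfsd12.

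The inhibitor Fbxo5 had 199 and 195 CPM at 10 cycles, 183 and 178 after 14 cycles, and 388 and 236 with 18 cycles. The rise was uneven, with replicate 1 at 18 cycles far above replicate 2. Its log2 fold change was 0.91 (standard error 0.22, adjusted p = 0.00837, edgeR's quasi-likelihood test). It was called in only 1 of the 6 fits that left out 1 library, the one without replicate 2 at 18 cycles, and without replicate 1 at 18 cycles it was 0.60 (adjusted p = 0.0263 by edgeR's quasi-likelihood test). It was also not called with TMM (adjusted p = 0.0127) or with only the 2 groups compared (adjusted p = 0.0232), both by edgeR's quasi-likelihood test.

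**Figure D2:**
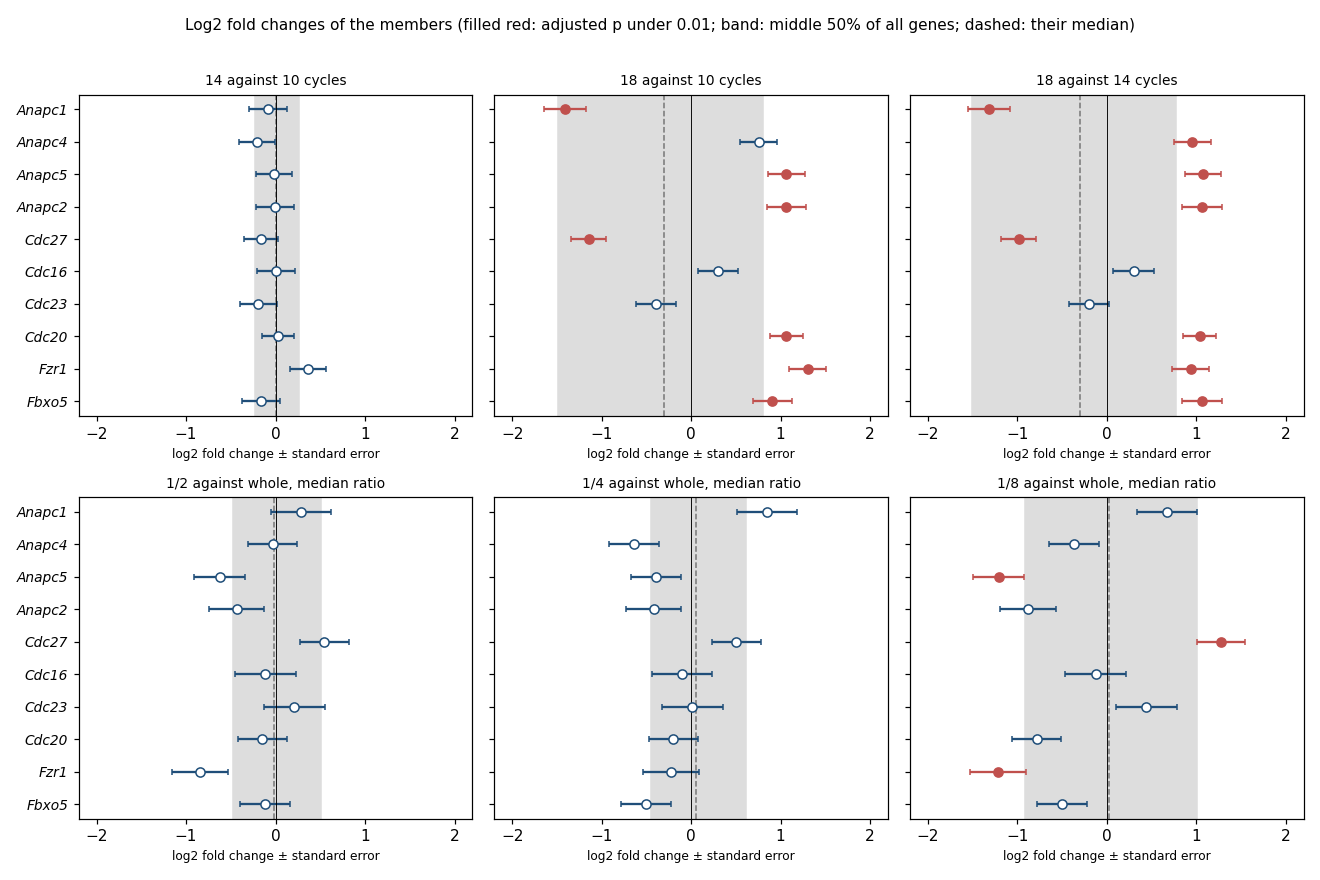
Log2 fold changes with standard errors (horizontal axis) of the 10 genes (vertical axis) in 6 comparisons by edgeR's quasi-likelihood test with median-ratio size factors. Filled red points passed an adjusted p of 0.01, the grey band is the middle 50% of all genes tested and the dashed line their median; with ERCC size factors Anapc1, Cdc23 and Cdc27 turn positive at 18 cycles.

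The genes differ in length and base composition, and these values are given as description, since their part in the changes was not tested. They refer to the principal GENCODE transcript of each gene. Anapc1 had 8942 bases with 46.9% GC, Anapc2 3004 with 55.2%, Anapc4 3854 with 44.5% and Anapc5 2760 with 51.5%. In the TPR arm Cdc16 had 2301 bases with 47.6% GC, Cdc23 4133 with 47.1% and Cdc27 5425 with 39.9%. The activators Cdc20 and Fzr1 had 1793 bases with 55.6% and 3057 with 59.9%, and Fbxo5 had 1940 with 45.1%. The medians over 21901 coding genes were 2565 bases and 49.2%.

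Stored oocyte mRNAs are often controlled through the cytoplasmic polyadenylation element (CPE), a U-rich site near the end of the 3' untranslated region (3' UTR) that bears on tail length, and poly(A) capture depends on the tail. The 3' UTR of each principal transcript was searched on the sense strand for TTTTAT and TTTTAAT. Of 19378 genes with a 3' UTR of at least 100 bases, 57.9% held at least 1 match and 17.9% held one that started in the last 100 bases. Of the 9 genes here with a 3' UTR of that length, 6 held a match and 1 held one in the last 100 bases, namely Fbxo5 with 1 of its 2. Cdc27 had 8 matches in 2853 bases, Anapc4 3 in 1178, Anapc1 2 in 2844, Anapc5 1 in 348 and Cdc23 1 in 2311, none of them in the last 100. Fzr1, Anapc2 and Cdc16 had 0 matches in 3' UTRs of 1287, 452 and 307 bases. The remaining gene, Cdc20, had 2 matches in a 3' UTR of only 62 bases. The matches closest to the end are shown for the activator and the inhibitor that have one there, with 30 bases of GRCm38 sequence from GENCODE transcripts, minus strand, and the match in capitals. The Cdc20 window lies at chr4:118432918-118432947, and its match in capitals starts 35 bases before the end of the 3' UTR. The other match of Cdc20 ends on the first base in capitals and is otherwise in lower case. The Fbxo5 window lies at chr10:5799226-5799255, and its match starts 84 bases before the end.
Cdc20: ttcttgtttttaTTTTATtttttctaataa
Fbxo5: aatgtgagttttTTTTATatctgtgaatac
A match is only a run of letters, and whether it is used in these oocytes was not tested.

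Each fraction was set against whole oocytes at 18 cycles, in a fit of the 8 libraries of that cycle number. The fractions came from other oocytes than these whole ones, so an effect of the amount of lysate cannot be told apart from a difference between oocytes. With median-ratio size factors, 0 of the 10 genes were called in 1/2 and 0 in 1/4 by edgeR's quasi-likelihood test. In each comparison 2 of them had an unadjusted p under 0.05, as had 1942 (1/2) and 2335 (1/4) of 14788 genes. DESeq2 called 0 of the 10 in both, beside 47 genes down and 102 up for 1/2 and 171 down and 70 up for 1/4. The background was 0.0338% lower, 0.0811% higher and 0.115% in either direction of 14788 genes for 1/2, and 0.426%, 0.0406% and 0.467% for 1/4. Among genes with at least 10 counts in every library it was 0.216% for 1/2 and 0.792% for 1/4. In 1/8, 2 of the 10 genes were lower and 1 was higher, against 8.66% lower and 7.08% higher of all genes, or 15.7% in either direction. Among genes with at least 10 counts in every library that background was 26.2%, and 3 of the 10 were called there too. The median log2 fold change of the 10 genes in 1/8 was -0.43, and that of all genes was 0.03.

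Fzr1 had 278 and 264 CPM in 1/2, 453 and 437 in 1/4, and 317 and 148 in 1/8. The libraries of 1/8 lay below both whole oocytes at 18 cycles, those of 1/4 lay between them, and those of 1/2 lay below. Its log2 fold change in 1/8 was -1.21 (standard error 0.32, adjusted p = 0.00674, edgeR's quasi-likelihood test). The call was lost in 5 of the 8 fits that left out 1 library. These were without replicate 1 at 18 cycles (-1.01), either library of 1/2 (-1.21 in both fits), replicate 1 of 1/4 (-1.22) and replicate 2 of 1/8 (-0.76, adjusted p = 0.107 by edgeR's quasi-likelihood test). Without replicate 1 of 1/8 it was -1.87 and called. With TMM it was -1.13 and not called.

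Anapc5 had 158 and 250 CPM in 1/2, 261 and 249 in 1/4, and 171 and 132 in 1/8. Every fraction library was below both whole oocytes at 18 cycles. In 1/8 the log2 fold change was -1.21 (standard error 0.29, adjusted p = 0.00348, edgeR's quasi-likelihood test). It was not called without replicate 1 at 18 cycles (-1.25), replicate 2 at 18 cycles (-1.19) or replicate 2 of 1/8 (-1.02).

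Cdc27 moved the other way, with 163 and 195 CPM in 1/2, 188 and 184 in 1/4, and 322 and 342 in 1/8. All 6 fraction libraries were above both whole oocytes at 18 cycles, and those of 1/8 lay near the 327 and 304 CPM seen at 10 cycles. In 1/8 it rose by 1.28 on the log2 scale (standard error 0.27, adjusted p = 0.00151, edgeR's quasi-likelihood test), but with ERCC size factors the value was -3.66. Without replicate 1 at 18 cycles it was 1.15 and not called (adjusted p = 0.0238 by edgeR's quasi-likelihood test), and in that fit 0 of the 10 genes were called, with 802 genes lower and 289 higher of 14609. Without replicate 2 of 1/8 it was 1 of the 10, with 684 genes lower and 623 higher of 14655.

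These calls were absent with other references, in a fit that also held more libraries and more genes, so the part of the reference alone was not tested. Against whole oocytes at 10 or at 14 cycles, in a fit of all 12 libraries by edgeR's quasi-likelihood test, 0 of the 10 genes and 0 of 18041 genes in all were called in 1/8. At an unadjusted p under 0.05 there were 2275 genes against 10 cycles and 2516 against 14 cycles, and DESeq2 was not run with these references. The log2 fold changes against 10 cycles were -0.15 for Anapc5, 0.13 for Cdc27 and 0.09 for Fzr1. For 1/2 the same references called 2 genes (10 cycles) and 4 genes (14 cycles) of the 10, and over 18041 genes 1243 lower and 1678 higher (10 cycles) and 1265 lower and 1704 higher (14 cycles). For 1/4 they called 1 and 0 of the 10 by edgeR's quasi-likelihood test, beside 752 genes lower and 1050 higher (10 cycles) and 648 lower and 985 higher (14 cycles), with 5780 and 5426 genes at an unadjusted p under 0.05.

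With the median ratio, the other 7 genes had smaller differences in 1/8. Anapc1 had 60.6 and 77.6 CPM there, above the 47.1 and 27.5 of the whole oocytes at 18 cycles, but the log2 fold change of 0.68 (-4.35 with ERCC size factors) was not called. It was 1.03 without replicate 1 and 0.39 without replicate 2 at 18 cycles, and -0.75 against whole oocytes at 10 cycles. Anapc2 (-0.88, adjusted p = 0.0374) and Cdc20 (-0.78, adjusted p = 0.0400) did not pass by edgeR's quasi-likelihood test either, and against whole oocytes at 10 cycles they were 0.18 and 0.28. Cdc20 had 143 and 101 CPM in 1/8, below its 166 to 181 CPM in 1/2 and 1/4. Cdc16 ranged from 34.3 to 49.9 CPM over all 12 libraries, the narrowest range of the 10 genes in CPM over these libraries. Cdc23 had 51.0 and 55.8 CPM in 1/8, Anapc4 had 198 and 271, and Fbxo5 had 264 and 240.

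Between neighbouring fractions 0 of the 10 genes were called by edgeR's quasi-likelihood test. From 1/2 to 1/4 the background was 0% of 14788 genes, with 1843 genes and 1 of the 10 at an unadjusted p under 0.05, while DESeq2 called 11 genes lower and 15 higher but none of the 10. From 1/4 to 1/8 the background was 3.42% lower, 1.54% higher and 4.96% in either direction, or 8.09% among genes with at least 10 counts in every library. There, 4 of the 10 genes and 3984 of all genes had an unadjusted p under 0.05, and DESeq2 called 0 of the 10 but 729 genes lower and 384 higher. From 1/4 to 1/8 Fzr1 changed by -0.99 (adjusted p = 0.0427 by edgeR's quasi-likelihood test). Without replicate 1 of 1/8 it was -1.63 and 1 of the 10 genes was called, Fzr1 (adjusted p = 0.00789 by edgeR's quasi-likelihood test), beside 291 genes lower and 147 higher of 14057. Without replicate 2 of 1/8 it was -0.54 and not called (adjusted p = 0.369 by edgeR's quasi-likelihood test).

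Set against the spike-in, all 10 genes were lower in each fraction than in whole oocytes at 18 cycles. An equal amount of spike-in was added after dilution, so the design itself lowers every gene on this scale. The background was 52% of 14788 genes lower for 1/2, 69.7% for 1/4 and 87.5% for 1/8. Among genes with at least 10 counts in every library it was 85.5%, 99% and 100%, so the count of 10 says little about these genes in particular. For 1/2 the count was 5 without replicate 1 at 18 cycles and 3 without replicate 2 of 1/2, where 3081 of 14609 and 1930 of 14626 genes were lower. Fzr1 had 1061 and 448 counts per 1000 ERCC counts in whole oocytes at 18 cycles, 122 and 90.9 in 1/2, 97.1 and 76.0 in 1/4, and 15.6 and 6.89 in 1/8. Cdc27 had 215 and 142, 71.5 and 67.1, 40.2 and 32.0, and 15.9 and 15.9 on the same scale. For both genes the fractions lay below the whole oocytes without overlap, and 1/8 was lowest.

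The median log2 fold change of the 10 genes with ERCC size factors was -2.14 in 1/2, -2.96 in 1/4 and -5.42 in 1/8, while all genes had medians of -1.997, -2.69 and -4.92. In 1/8 Cdc27 had -3.66 (standard error 0.50) and Fzr1 -6.21 (standard error 0.59), beside -6.16 (standard error 0.56) for Anapc5, which is not ordered against Fzr1. Cdc27 and Fzr1 were called by edgeR's quasi-likelihood test, with adjusted p-values of 2.44e-09 and 1.27e-13, and each had 2 of 2 libraries below the whole oocytes. Because dilution sets this direction, these p-values are not support for a change particular to either gene. Against whole oocytes at 10 cycles, 0 of the 10 genes were called in 1/2 and 0 in 1/4 by edgeR's quasi-likelihood test, and 10 were called in 1/8. Over 18041 genes 1/2 had 384 calls down and 1181 up, 1/4 had 1399 down and 157 up, while 1/8 had 13401 down and 0 up, with 5531, 6212 and 15723 at an unadjusted p under 0.05, and DESeq2 was not run. The whole oocytes at 18 cycles had only 1611 and 1474 ERCC counts, and 1873 and 1158 gene counts for each ERCC count. Those at 10 and 14 cycles had between 323 and 360 gene counts for each ERCC count.

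Other genes around the APC/C were taken from lists of the remaining subunits, ubiquitin-conjugating (E2) enzymes, inhibitors, substrates and regulators. The background for these lists was the one given above, 10.9% lower and 12.2% higher from 10 to 18 cycles, and 8.66% lower and 7.08% higher in 1/8. Among genes with at least 10 counts in every library, as most of these are, it was 45.6% and 26.2% in either direction. Of 7 other subunits, 1 fell and 4 rose from 10 to 18 cycles, with a median of 0.97. Against 14 cycles 1 fell and 3 rose, and in 1/8 it was 1 lower and 1 higher. Anapc11, the RING partner of Anapc2 in the catalytic core, had 70.8 and 88.6 CPM at 10 cycles and 291 and 247 at 18 cycles, and 120 and 105 in 1/8. It stood higher at 18 cycles than in both other groups, rising by 2.01 on the log2 scale from 10 cycles (adjusted p = 0.000119) and changing by -1.45 in 1/8 (adjusted p = 0.000482) by edgeR's quasi-likelihood test. Anapc10, a subunit that helps the activators to recognise substrates, went the other way with 25.4 and 23.7 CPM at 10 cycles, 4.31 and 2.34 at 18 cycles, and 47.0 and 57.6 in 1/8. Its values at 18 cycles rested on 13 and 4 counts, and its log2 fold changes were -2.57 from 10 to 18 cycles and 3.71 in 1/8. Anapc7, Anapc13 and Anapc15 rose from 10 to 18 cycles by 0.97, 1.47 and 1.00 on the log2 scale, but Anapc13 was not called against 14 cycles. Of the exon bases of Anapc13 10.1% are shared with another gene, and of those of Anapc15 38.4%.

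The E2 enzymes work with the APC/C to pass ubiquitin to its substrates. Ube2c, which starts ubiquitin chains, had 161 and 172 CPM at 10 cycles, 467 and 392 at 18 cycles, and 197 and 184 in 1/8. Ube2s, which extends them, had 31.6 and 39.7, 126 and 121, and 52.4 and 38.2 CPM in the same groups. Both were higher at 18 cycles than at 10 cycles or in 1/8, with no overlap. They rose from 10 to 18 cycles, by 1.62 and 2.04, and were lower in 1/8, by log2 fold changes of -1.36 and -1.62 (2 of 3 E2 enzymes called in each comparison by edgeR's quasi-likelihood test, beside the 45.6% and 26.2% above). Ube2c shares 22.8% of its exon bases with Tnnc2 and Ube2s 3.56% with Rpl28.

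Of 5 other inhibitors, 1 rose from 10 to 18 cycles (background 12.2% higher), although their median was -0.52. In 1/8, where their median was 0.68, 1 was higher (background 7.08%). The one at 18 cycles was Mad2l2, which restrains Fzr1 (log2 fold change 1.51), and the one in 1/8 was the spindle checkpoint protein Mad2l1 (1.25). Of 8 substrates, 2 fell from 10 to 18 cycles (background 10.9% lower) although their median was 0.45, and against 14 cycles 2 fell and 2 rose (background 10.8% and 12.5%). In 1/8 3 of them were higher (background 7.08%). Ccnb1, which encodes cyclin B1, had 343 and 278 CPM at 10 cycles, 52.4 and 72.7 at 18 cycles, and 314 and 270 in 1/8. Its libraries at 18 cycles were the lowest of these, with log2 fold changes of -2.05 from 10 to 18 cycles and 2.03 in 1/8. Relative to 1000 ERCC counts it had 111 and 100 at 10 cycles, 98.1 and 84.1 at 18 cycles, and 15.5 and 12.6 in 1/8. The mitotic kinase Aurka had -1.47 and 1.76 in the same comparisons, and Pttg1, which encodes securin, was called in 1/8 alone (1.18). Of 8 regulators 7 were tested, and 3 fell from 10 to 18 cycles, namely the phosphatases Cdc14b (-2.63) and Cdc25b (-1.04) and the phosphatase scaffold Ppp2r1a (-0.86), while 0 were called in 1/8. That count of 0 is by edgeR's quasi-likelihood test with a background of 15.7%, 3 of the 7 had an unadjusted p under 0.05, and the lists were not read in DESeq2. All directions for the lists are relative to the median ratio. They were not computed with ERCC size factors for the cycle numbers, and with ERCC size factors Ccnb1, Pttg1, Aurka and Mad2l1 were called lower in 1/8, where the median ratio had them higher.

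Genes with the most similar profile over the 12 libraries were found by the root mean square difference of centred log2(CPM + 1), among 8329 genes with at least 10 counts in every library. The 3 nearest to Cdc20 were Insig1 (0.0991), Tubb6 (0.125) and Ubac2 (0.125), and the nearest of the 10 genes was Anapc2 (0.199), only at rank 98. The 3 nearest to Fzr1 were Bcar1 (0.144), Letm1 (0.173) and Ngef (0.187), and the nearest of the 10 was Anapc5 (0.282, rank 87). Those nearest to Fbxo5 were Gtf2h1 (0.0892), Anapc7 (0.126) and Tcp1 (0.138), and the nearest of the 10 was Anapc4 (0.261, rank 262). The median distance of all genes was 0.580 for Cdc20, 0.688 for Fzr1 and 0.569 for Fbxo5. Anapc7 is another APC/C subunit of the TPR arm and was the only gene of the lists among these 9.

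Cell markers were read in the same libraries. All 10 GV oocyte markers had counts in each library, with Gdf9 or Ooep the most abundant. Their sum lay between 21882 and 25357 CPM at 10 and 14 cycles. It was 7118 and 5891 CPM in whole oocytes at 18 cycles. The fractions had 9169 and 8825 (1/2), 12996 and 13939 (1/4), and 19480 and 20090 CPM (1/8). The sum was thus lowest in whole oocytes at 18 cycles and returned towards the lower cycle numbers in 1/8. With the median ratio 8 of the 10 markers were lower at 18 than at 10 cycles (background 10.9%) and 6 were higher in 1/8 (background 7.08%), where 10 of 10 were lower with ERCC size factors, and the part of this shift in the changes described above was not tested. Among genes with at least 10 counts in every library, 1651 of 9073 were lower at 18 than at 10 cycles and 1011 of 8330 were higher in 1/8. The 8 granulosa and cumulus markers summed to between 85.1 and 144 CPM at 10 and 14 cycles and to 58.7 and 25.8 CPM at 18 cycles. The fractions had 34.0 and 31.4 (1/2), 55.4 and 59.6 (1/4), and 77.3 and 69.3 CPM (1/8), with Nr5a2 or Cyp19a1 the most abundant in each library. With the median ratio Cyp19a1 and Kitl were lower at 18 than at 10 cycles (2 of 7 tested, background 10.9%) and Cyp19a1 was higher in 1/8 (1 of 6 tested, background 7.08%), where 6 of 6 were lower with ERCC size factors. Foxl2 was at 0 in 7 libraries and Fshr in 9. The 5 blood and immune markers summed to at most 4.16 CPM, which was Cd68, and Hba-a1 and Cd3e were at 0 in all 12 libraries.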

How the data were processed

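Single-cell poly(A) RNA-seq was available for 12 libraries in 6 groups of 2, assigned by the labels. The authors deposited raw counts for genes and ERCC molecules, without normalization or removal of duplicates. The labels name cutadapt 2.5, STAR 2.7.2a and HTSeq 0.9.1 for the mm10 genome, while the methods give other versions. Whether counting used the strand was not settled, so genes that overlap on opposite strands are uncertain. Gene counts ranged from 1702062 to 13806199 per library, and reads on no feature made up 6.9% to 10.8%. Wilson intervals at 95% were computed for shares of counts.

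Gene models came from GENCODE mouse release 21, which lists 55480 of the 55573 genes. CPM used gene counts, and TPM used merged exon lengths. Tests used edgeR 4.0.16 (quasi-likelihood) in R 4.3.3 on all genes with 5 or more counts in 2 or more libraries, adjusted by Benjamini-Hochberg with a threshold of 0.01. Separate fits held the 6 whole-oocyte libraries and the 8 libraries at 18 cycles. Size factors were median ratios over all genes or over ERCC molecules. The fits were also run on simulated data, but no values from that are given here. Tables and plots were made with Python 3.11.15, pandas 2.3.3, scipy 1.17.1 and matplotlib 3.10.9.

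The 10 genes and the lists of related genes were chosen with earlier results of these data known. All 10 are given with their values. From the lists, counts are given, and by name the genes that passed in 18 against 10 cycles or in 1/8 with the median ratio. The 3 genes nearest in profile to Cdc20, Fzr1 and Fbxo5 are also named. The alternatives comprised another tool (DESeq2 1.42.0), filtering nothing or demanding 10 counts in every library, a replicate block, TMM, ERCC size factors for cycles, total ERCC counts, only the 2 groups compared, references at 10 or 14 cycles, leaving out each library, and for TPM another length and denominator. Size factors from the genes kept by the filter, and ERCC size factors that keep molecules at 0, were run first. The settings reported replaced them after results had been seen, and they are kept as alternatives chosen after seeing the data. The transcript features were also chosen after the data were seen.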

Additional observations from a re-analysis of the deposited data

How the results depend on the processing

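Of the alternatives for single fold changes, 1519 kept their side of the threshold, whatever the sign of values not called, 98 lost and 8 gained a call, and 35 turned direction with a call on at least 1 side. The cause was not tested where no construction is given.

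With ERCC size factors Anapc1, Cdc23 and Cdc27 were 0.89, 1.86 and 1.08 from 10 to 18 cycles, and 1.01, 2.08 and 1.26 from 14 to 18 cycles, with Cdc23 called higher in both and Cdc27 in the second. With the median ratio and whole oocytes at 10 cycles as reference, Anapc1 was -1.11 and Cdc20 0.94 in 1/2, Fzr1 was 1.08 in 1/4 and 0.09 in 1/8. With 14 cycles as reference, Anapc1 was -1.02, Anapc4 0.94, Cdc20 0.91 and Fbxo5 0.96 in 1/2. With ERCC size factors and the reference at 10 cycles, 1/2 gave Anapc2 0.77, Anapc4 0.91, Anapc5 0.59, Cdc16 0.36, Cdc20 1.11, Fzr1 0.68 and Fbxo5 0.96, and 1/4 gave Anapc5 0.04, Cdc20 0.22 and Fzr1 0.45. With the reference at 14 cycles, 1/2 gave Anapc2 0.74, Anapc4 1.09, Anapc5 0.56, Cdc16 0.32, Cdc23 0.15, Cdc20 1.05, Fzr1 0.27 and Fbxo5 1.09, and 1/4 gave Anapc5 0.00, Cdc20 0.16 and Fzr1 0.04.

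The number of the 10 genes called was 5 for 18 against 14 cycles with only the 2 groups compared, beside 1451 lower and 1802 higher of 16317 genes. With the references at 10 and 14 cycles it was 2 and 4 for 1/2 and 0 and 0 for 1/8 with the median ratio, 1 for 1/4 with the reference at 10 cycles, and 0 for 1/2 and for 1/4 with ERCC size factors and either reference. These counts are by edgeR's quasi-likelihood test.

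Leaving out 1 library gave 0 to 7 genes called for 18 against 10 cycles and 0 to 7 for 18 against 14 cycles. It gave 0 to 3 for 1/8 and 0 to 1 for 1/8 against 1/4 with the median ratio. With ERCC size factors it gave 3 to 10 for 1/2, 9 to 10 for 1/4 and 10 for 1/8. The other 4 comparisons stayed at 0. The median over the 10 genes of their mean TPM in the 12 libraries was 112, and between 111 and 115 without 1 library.

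With the replicate block, 7 of the 10 genes were called for 18 against 10 cycles, 8 for 18 against 14 cycles and 3 for 1/8 with the median ratio. Over all genes that fit called 2118 down and 2248 up, then 2131 down and 2249 up, of 17532, and for 1/8 1473 down and 1168 up of 14788. Labels share only a number, and deviations of same-numbered libraries correlated between -0.144 and 0.136 over genes with at least 10 counts. The size factors run first, kept as alternatives chosen after seeing the data, gave the same numbers of called genes among the 10. Over all genes some numbers differed. With median ratios over the genes kept, 1898 were lower and 2155 higher for 18 against 10 cycles, beside 1915 and 2131. With ERCC molecules at 0 kept, 7408 were lower for 1/2, beside 7697. The libraries with the fewest gene counts had 1702062 and 1706478.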
